A study of Mus musculus with 11 samples.

Results

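Immediate early genes are switched on within minutes of a growth factor, stress or serum signal, before any new protein is made. The 10 genes described here are the immediate early genes outside the AP-1 (Fos and Jun) family: Egr1, Egr2, Egr3, Ier2, Ier3, Ier5, Zfp36, Dusp1, Btg2 and Atf3. They were chosen by name and not by a measured value, though with earlier results of these data known, from 22350 protein-coding genes of an annotation of the mouse assembly mm9. Each was described over its gene model and the 5 kb flanking it at either side, called its window. Of 831994 distinct HIV integration sites in 11 libraries, 895 lay in the 10 windows.

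Each library came from C57BL/6 mouse embryonic fibroblasts (MEF) of genotype LEDGF-/-, which lack the host protein that normally tethers the viral integrase to chromatin. A plasmid encoding 1 protein fused to LEDGF-IBD, the integrase-binding domain of LEDGF, was electroporated. HIV was added after 24 hours, the cells were grown for 3 more days, and integration junctions were amplified and sequenced, and the study takes the sites as a readout of where the fused protein sits. The fused proteins were 4 subunits of NELF (NELFA, NELFB, NELFCD, NELFE), SPT5, and 6 proteins grouped here as Integrator: INTS3, INTS9 and INTS11, and the INTS3 partners NABP1, NABP2 and INIP. With 1 library per protein, the different proteins of a family serve as its replicates, and each SD is a spread between proteins. The Integrator family joins INTS proteins with partners of INTS3 and is not treated as 1 complex, so its SDs and p-values mix these. A library without a fused protein was not analysed here, and the labels give no serum or growth factor treatment.

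At these genes RNA polymerase II is known for starting, then stopping a short way into the gene. SPT5, with its partner SPT4, and NELF hold the polymerase there until a kinase releases it, and Integrator can cut the short nascent RNA and end transcription early. In fibroblasts many immediate early genes are known targets of the serum response factor SRF, which binds the CArG box, and of its Ets partners. Many are also known targets of CREB, which binds the CRE. The products of immediate early genes are transcription factors and feedback regulators that shape the response that follows.

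Libraries held from 18753 (NELFE) to 197069 (INTS9) distinct sites, with a median of 41265, and INIP was the second smallest with 24907. Flow cells were inferred from the read names of the entries, not from the sample labels. A single flow cell carried all 4 NELF libraries and nothing else. In any comparison of NELF with Integrator the family therefore cannot be told apart from the flow cell. SPT5 was likewise alone on another flow cell, so its differences from the other libraries cannot be told apart from that flow cell either. As a check of the cell type, the windows of 10 fibroblast genes were summed. They held 2.43 (INIP) to 15.4 (SPT5) times the sites of a uniform spread over the genome, from the lowest to the highest library. The corresponding range was 0.654 to 1.71 for 5 neuron genes, 0 to 1.40 for 4 blood genes and 0 to 3.56 for 5 hepatocyte genes. The fibroblast and hepatocyte ranges thus overlapped. Single fibroblast genes varied, from 137 sites at Vim and 111 at Col1a1 to 17 each at Col3a1 and Thy1. The neuron gene Syt1 also held 137, and these counts are not scaled for gene length.

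Regulatory sequence just before the start can carry the signal response of such genes. The 200 bases before the start are shown for 4 members in which a response motif was found. All are from mm9 and run 5′ to 3′ in the direction of the gene. Capitals mark the CArG box in Zfp36, the full CRE TGACGTCA in Ier2 and Dusp1, and the shorter CRE core TGACG, on either strand, in Dusp1 and Btg2. The intervals are chr7:29164275-29164474 (minus strand) for Zfp36, chr8:87186752-87186951 (minus) for Ier2, chr17:26645465-26645664 (minus) for Dusp1 and chr1:135975698-135975897 (minus) for Btg2.
Zfp36: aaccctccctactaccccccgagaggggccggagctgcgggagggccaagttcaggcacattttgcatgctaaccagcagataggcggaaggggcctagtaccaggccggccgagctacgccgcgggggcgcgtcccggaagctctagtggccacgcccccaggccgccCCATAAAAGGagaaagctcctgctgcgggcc
Ier2: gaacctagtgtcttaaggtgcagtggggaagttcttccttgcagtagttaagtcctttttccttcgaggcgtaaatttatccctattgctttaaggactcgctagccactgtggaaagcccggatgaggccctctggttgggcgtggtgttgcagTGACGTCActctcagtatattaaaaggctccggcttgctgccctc
Dusp1: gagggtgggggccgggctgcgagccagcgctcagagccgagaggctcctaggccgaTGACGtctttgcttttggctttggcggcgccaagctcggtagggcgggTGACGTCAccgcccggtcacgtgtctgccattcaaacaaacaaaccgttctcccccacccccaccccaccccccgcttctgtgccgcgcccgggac
Btg2: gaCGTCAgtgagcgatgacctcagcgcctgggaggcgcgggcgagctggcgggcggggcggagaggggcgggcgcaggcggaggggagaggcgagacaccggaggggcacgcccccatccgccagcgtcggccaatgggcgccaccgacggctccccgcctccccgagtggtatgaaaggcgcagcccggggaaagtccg

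The motifs were searched on both strands in 22345 promoters of the same length. A CArG box lay in 2 of the 10 members, Egr1 and Zfp36, and in 1.06% of all promoters. The full CRE lay in Ier2 and Dusp1, at 45 to 38 and 96 to 89 bases before the start, and in 1.83% of all promoters. Its core TGACG, which every full CRE also holds, lay in 4 members, Egr1, Ier2, Dusp1 and Btg2, and in 17.2% of promoters. The EGR site GCGGGGGCG lay in Zfp36 and in 3.01% of promoters. GGGCGG, the core of an Sp1 site, lay in 7 of 10 members and in 38.0% of promoters. TATAAA and the Ets site CCGGAAGT were in no member, against 10.1% and 3.17% of promoters. These matches describe letters in this interval and do not show that a factor binds there.

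Within the 10 windows the libraries differed both in how many sites they held and in where the sites lay. Summed over the 10 genes, NELF libraries held 167.7 ± 26.7 sites per 100000 sites of the library (SD, n = 4, as for NELF throughout). The values were 172.7 in NELFA, 203.5 in NELFB, 145.4 in NELFCD and 149.3 in NELFE, from 52, 63, 60 and 28 sites. Integrator libraries held 74.5 ± 38.1 (SD, n = 6, as for Integrator throughout), with 102.8 in INTS3, 42.6 in INTS9, 58.9 in INTS11, 98.2 in NABP1, 120.2 in NABP2 and 24.1 in INIP. The INIP value rests on 6 sites, and the Integrator mean without it was 84.5. SPT5 had 234.0 (exact Poisson 95% interval 202.1 to 269.6, 192 sites), the highest value of the 11. Each NELF library was above each Integrator library in this sum, and every library was above a uniform spread over the genome, by 4.35-fold in INIP to 42.2-fold in SPT5. Windows of all 22350 protein-coding genes averaged 0.130 sites per 100000 per kb in NELF and 0.0901 in Integrator. The medians of these windows were 0.0479 and 0.0523. Whether the gap in the sum differs from that over other genes was not tested. Intervals here cover counting error only, since amplified junctions are not independent molecules.

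**Figure D1:**
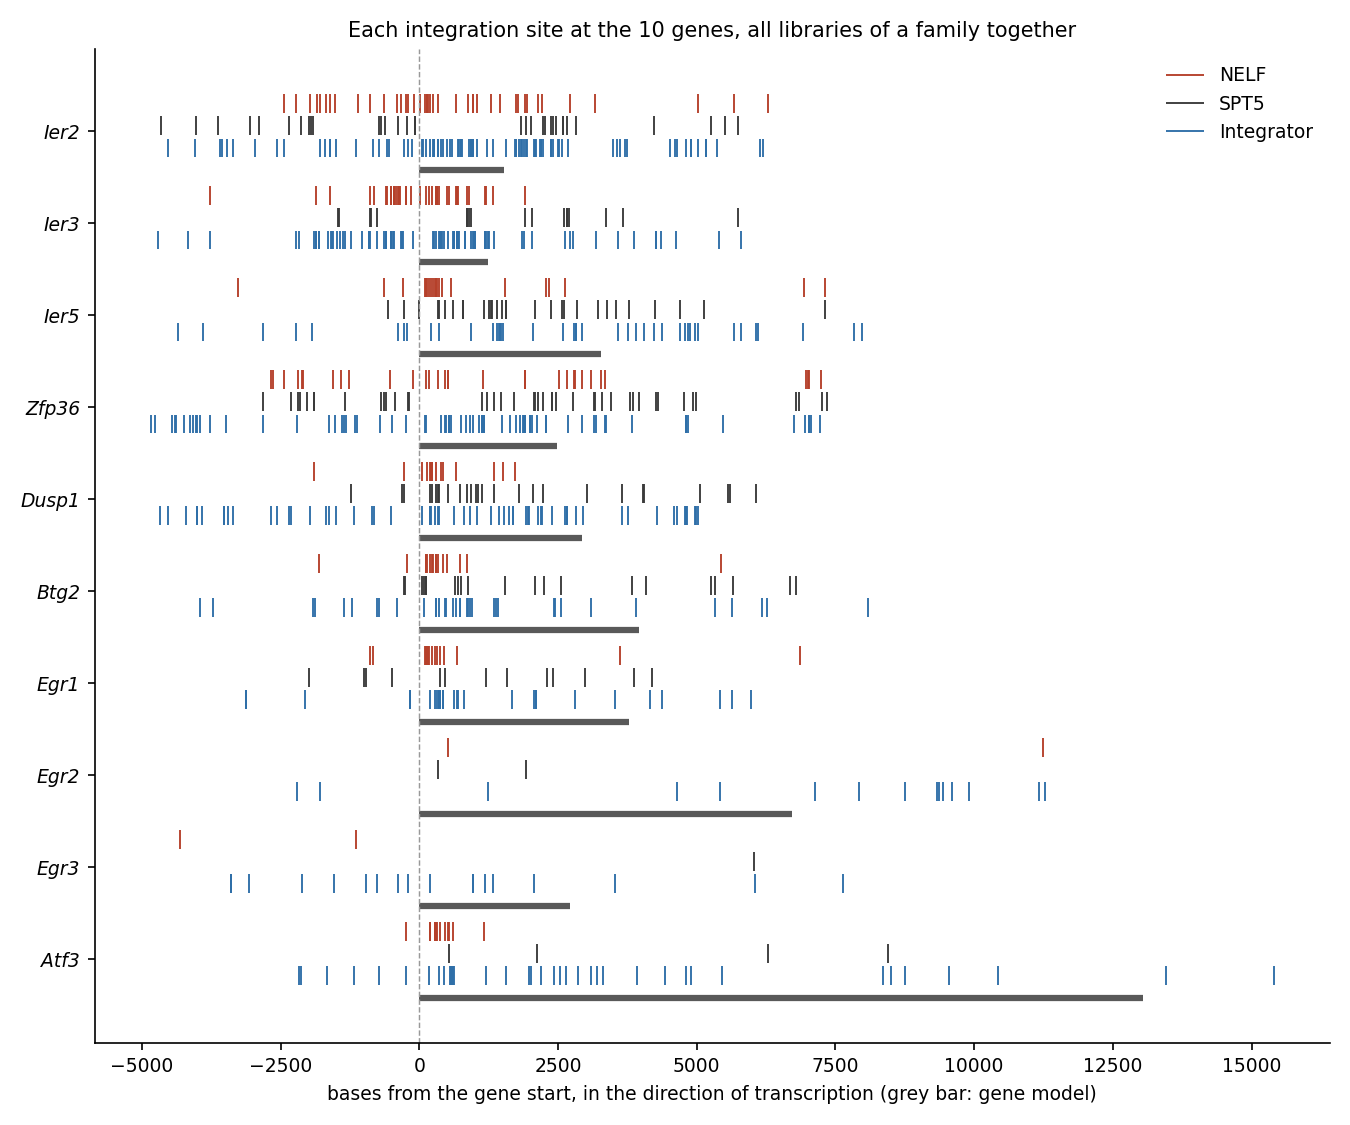
Each integration site in the windows of the 10 genes. The x axis is the distance in bases from the gene start in the direction of transcription. Each tick is a site, with the 4 NELF, the SPT5 and the 6 Integrator libraries on separate rows, and the grey bar is the gene model. NELF ticks gather just past the start in Ier5, Btg2, Egr1 and Atf3, and SPT5 ticks of Ier5 and Btg2 also lie in the body and the 5 kb past the end. At Egr1, 11 of 31 Integrator ticks lie just past the start as well.

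Each window was split into a promoter zone of 1 kb on each side of the start (cut at the gene's end), a body, the 5 kb past the end, and the upstream part from 5 to 1 kb before the start. The promoter zone made up 14.1% of the bases of the 10 windows. It held 65.3 ± 8.74% of the member sites of a NELF library (SD, n = 4): 69.2% in NELFA, 52.4% in NELFB, 68.3% in NELFCD and 71.4% in NELFE. In Integrator libraries it held 30.5 ± 8.71% (SD, n = 6), with 36.4% in INTS3, 32.1% in INTS9, 40.0% in INTS11, 34.1% in NABP1, 23.6% in NABP2 and 16.7% in INIP. In SPT5 it held 29.7% (exact binomial 95% interval 23.3 to 36.7). The lowest NELF share was above the highest Integrator share, while SPT5 lay within the Integrator range.

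NELF was also above Integrator, with both at lower shares, over the 7733 protein-coding genes as long as the members (1240 to 13045 bases). There the promoter zone held 37.5 ± 5.55% in NELF (29.9 to 42.5%), 18.7 ± 3.17% in Integrator (15.5 to 23.9%) and 33.1% in SPT5, which lay within the NELF range. In the 7 AP-1 genes the shares were 33.2 ± 9.07%, 19.8 ± 5.28% and 32.7%. Whether the members differ from either set was not tested. Leaving out Ier3, whose promoter zone reaches toward the start of the gene Flot1, gave 61.2% for NELF and 27.8% for Integrator.

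The shares of the 4 zones sum to 100%, so a high promoter share lowers the others. The body held 7.78 ± 2.95% of the member sites of NELF libraries, 23.5 ± 5.76% of those of Integrator libraries and 24.5% of those of SPT5. Past the end the shares were 13.5 ± 6.68%, 28.6 ± 3.67% and 34.4%. Body ranges did not overlap between NELF (3.57 to 10%) and Integrator (16.2 to 33.3%), and neither did those past the end (7.14 to 22.2% and 24.9 to 33.3%). The same was so in the 7733 genes of like length, with 18 to 24.4% and 29.7 to 35.6% in the body, and 21.8 to 24.0% and 25.7 to 29.1% past the end. Upstream the members' shares overlapped, with 13.4 ± 5.33% in NELF, 17.4 ± 6.48% in Integrator and 11.5% in SPT5. Per base, the SPT5 library was 88.7-fold over uniform in the promoter zone, 46.3-fold in the body and 41.1-fold past the end. NELF was 138.0 ± 10.7-fold, 10.6 ± 4.28-fold and 12.1 ± 7.73-fold over uniform in the same zones, and Integrator 29.9 ± 16.1-fold, 13.0 ± 5.58-fold and 10.7 ± 5.69-fold. Per base, NELF and Integrator differed by less than their SDs in the body and past the end.

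**Figure D2:**
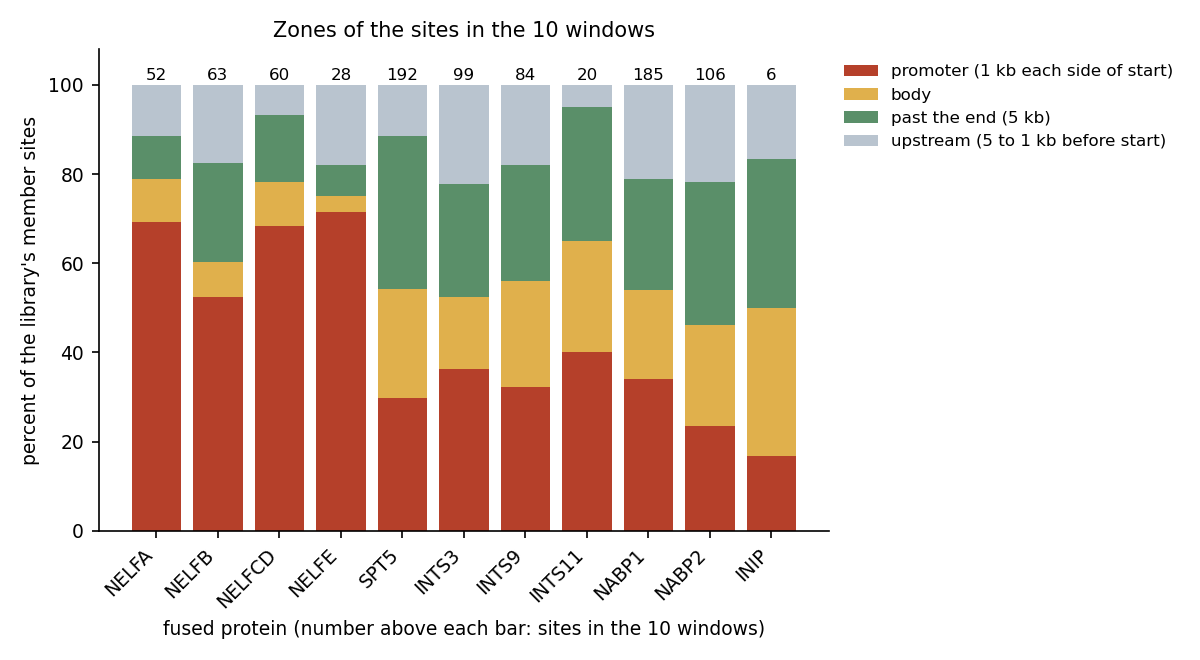
Share of each library's member sites by zone, in percent, with the fused proteins on the x axis and the number of sites above each bar. The promoter share runs from 52.4 to 71.4% in the 4 NELF libraries, from 16.7 to 40.0% in the 6 Integrator libraries and is 29.7% in SPT5. The INIP bar holds 6 sites.

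Close to the start, NELF sites were concentrated in the first part of the gene. In bins of 200 bases summed over the 10 genes, NELF held 25.2 ± 8.71 sites per 100000 from 0 to 200 and 31.2 ± 6.00 from 200 to 400 (SD, n = 4). Integrator also had its highest bin at 200 to 400, with 4.36 ± 2.77 (SD, n = 6). SPT5 was flatter, with 9.75 in that bin and 8.53 in several others. The first 600 bases of the genes, a distance chosen after the site map was seen, held 40.9 ± 4.09% of NELF member sites, from 36.5 to 46.2% among the 4 libraries. The share was 12.5 ± 8.16% in Integrator libraries (0 to 25.0%) and 9.38% in SPT5.

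The 200 bases just before the start held few sites. NELF had 2.99 ± 3.50 sites per 100000 there, from 3 sites, between 12.02 ± 2.10 in the bin before it and 25.2 in the bin after it. Of the 86 NELF sites within 400 bases of a member's start, 3.49% lay in those 200 bases, against 14.2% for NELF over all 22350 protein-coding genes. The shares were 6.56% and 16.3% for Integrator, and 20% and 21.7% for SPT5. These differences between the members and all genes were not tested, and the members' shares rest on 3 NELF, 4 Integrator and 5 SPT5 sites. In each of the 3 groups, 7 of the 10 genes had no site there, beside 93.7% of all protein-coding genes for NELF, 92.4% for SPT5 and 90.3% for Integrator.

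**Figure D3:**
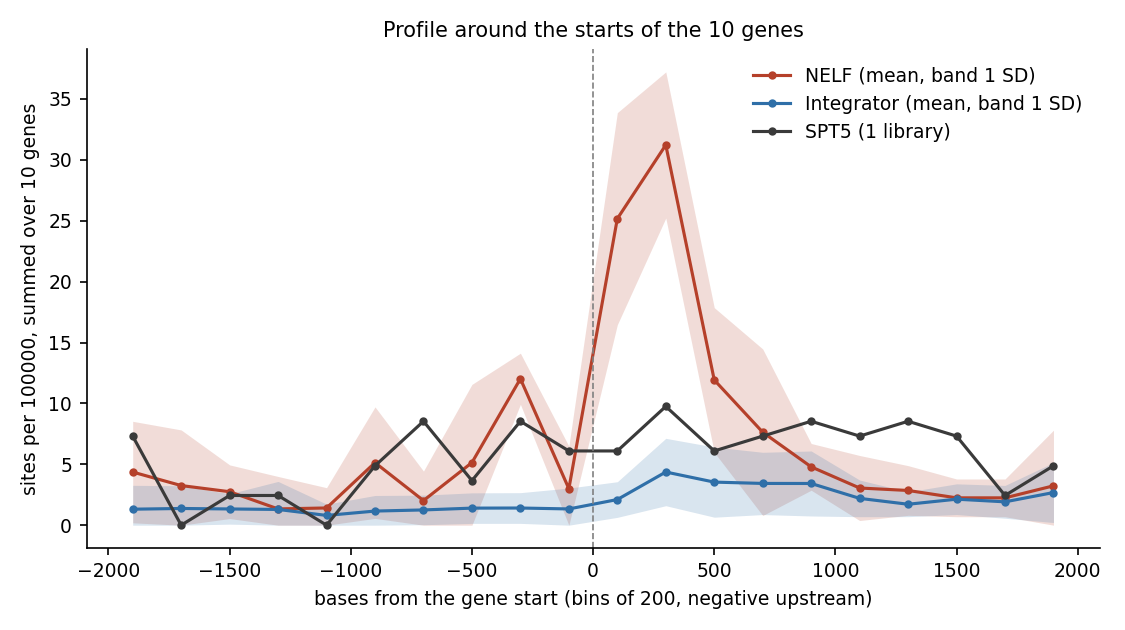
Sites per 100000 summed over the 10 genes (y axis) in bins of 200 bases around the start (x axis, negative upstream). Lines are means over the 4 NELF and 6 Integrator libraries with a band of 1 SD, and the SPT5 line is 1 library. NELF peaks at 31.2 between 200 and 400 bases and is at 2.99 in the bin just before the start.

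Of the members whose 200 bases are printed in this report, Ier2 and Zfp36 had sites in them. The same intervals are shown again with each base that was hit in capitals, to show where the sites lay beside the motifs. Ier2 had 4 sites on 4 bases in 3 libraries, and Zfp36 had 3 sites on 3 bases in 2 libraries. None of these bases lay in the CRE of Ier2 or the CArG box of Zfp36, and Dusp1 and Btg2 had no site in their interval.
Ier2: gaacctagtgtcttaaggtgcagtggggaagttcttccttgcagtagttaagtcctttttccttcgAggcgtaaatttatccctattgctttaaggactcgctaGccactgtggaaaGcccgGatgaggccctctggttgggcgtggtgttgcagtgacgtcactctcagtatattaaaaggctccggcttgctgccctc
Zfp36: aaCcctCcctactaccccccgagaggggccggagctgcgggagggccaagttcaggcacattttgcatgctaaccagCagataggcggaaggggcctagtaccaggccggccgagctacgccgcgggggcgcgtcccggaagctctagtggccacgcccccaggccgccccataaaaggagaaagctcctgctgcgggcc

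The inducible transcription factors fell into genes with many sites and genes with very few. Egr1, a zinc finger factor induced by growth factors (mm9, chr18:35020861-35024638, plus strand), held 60 sites. Per 100000 it had 19.9 in NELFA, 16.1 in NELFB, 7.27 in NELFCD and 10.7 in NELFE, a mean of 13.5 ± 5.63 (SD, n = 4). The Integrator values ran from 2.03 in INTS9 to 9.07 in NABP2, a mean of 5.49 ± 3.22 (SD, n = 6), and SPT5 had 15.8. NELF and Integrator overlapped by 1 NELF library in the window. In the promoter zone they did not overlap, with 7.27 to 16.1 in NELF and 1.01 to 5.89 in Integrator. Of its 16 NELF sites, 14 were in the promoter zone and 11 in the first 600 bases of the gene. The outermost of these 11 lay 106 and 439 bases past the start, so such bounds come from the sites themselves. Integrator sites gathered there too, with 11 of 31 in the first 600 bases, the outermost at 195 and 430.

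Atf3, a stress-induced factor of the ATF/CREB family and the longest member (chr1:192994175-193007219, minus strand), held 56 sites. NELF libraries had 9.96, 19.4, 7.27 and 10.7 per 100000 in NELFA, NELFB, NELFCD and NELFE, Integrator libraries from 0 in INIP to 11.8 in INTS11, and SPT5 had 4.88. It was the only member with more than 50 sites in which SPT5 was below each NELF library, with 4 SPT5 sites (exact Poisson 95% interval 1.33 to 12.5 per 100000). Its NELF sites were at the start: 13 of 14 lay in the promoter zone, and 11 in the first 600 bases, the outermost at 189 and 529. Its Integrator sites were mostly elsewhere, with 22 of 38 in the body and 10 in the promoter zone. In the promoter zone NELF (6.64 to 19.4) did not overlap Integrator (0 to 2.27).

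Egr2 and Egr3, close relatives of Egr1 known for roles in nerve sheath, muscle and immune cells, held 19 and 21 sites in all libraries together. Egr2 (chr10:66998223-67004936, plus strand) had 2 sites in NELF, 2 in SPT5 and 15 in Integrator libraries, of which 10 were past the end. The model of the gene Ado reaches into the 5 kb past the end of Egr2. Of the 19 sites, 8 lay inside Ado, 7 from Integrator and 1 from NELF libraries. The mean was 1.64 ± 1.89 per 100000 in NELF and 2.18 ± 1.54 in Integrator. At its other annotated start, 2394 bases into the gene model, 1 SPT5 site lay within 1 kb. Egr3 (chr14:70477252-70479964, plus strand) had 2 NELF sites, 1 SPT5 site and 18 Integrator sites, with means of 1.41 ± 1.66 and 2.19 ± 2.12 per 100000. These counts are too few to show a difference. For a count of 0 the exact Poisson 95% interval reaches 19.7 per 100000 in NELFE and 14.8 in INIP.

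The IER genes are named as immediate early response genes. Ier2, a small nuclear regulator (chr8:87185230-87186751, minus strand), held 167, the most of the 10. NELF libraries had 16.6 per 100000 in NELFA, 51.7 in NELFB, 31.5 in NELFCD and 42.7 in NELFE, a mean of 35.6 ± 15.1 (SD, n = 4). Integrator libraries had 16.6 in INTS3, 6.09 in INTS9, 17.7 in INTS11, 20.7 in NABP1, 21.5 in NABP2 and 0 in INIP, a mean of 13.8 ± 8.72 (SD, n = 6), and SPT5 had 40.2. NELFA was the only NELF library within the Integrator range. Many Ier2 sites lay past its end: 11 of 42 in NELF, 42 of 92 in Integrator and 16 of 33 in SPT5. A divergent long noncoding RNA gene, Gm2529, starts upstream of Ier2, at position -2276 from its start, and 23 of the 167 sites lay within 1 kb of that start.

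Ier3, a regulator of survival and NF-kB signalling (chr17:35958629-35959868, plus strand), held 143 sites. NELF libraries had 33.2 in NELFA, 16.1 in NELFB, 36.4 in NELFCD and 53.3 in NELFE, a mean of 34.8 ± 15.2 per 100000. Integrator libraries ran from 0 in INIP to 26.0 in INTS3, a mean of 12 ± 9.63, and SPT5 had 21.9. NELFB was within the Integrator range and the other NELF libraries were above it. Ier3 had the most promoter sites of the 10, 33 of 40 NELF sites and 42 of 85 Integrator sites, but 7 of 18 in SPT5. In density per base of the promoter zone it ranked 15 of 22350 protein-coding genes in NELF and 10 in Integrator. Flot1, a membrane scaffold gene, starts 307 bases past the end of Ier3, and 39 of the 143 sites lay within 1 kb of the Flot1 start (9 NELF, 24 Integrator, 6 SPT5), and the windows of the 2 genes share them.

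Ier5, which is known as a stress and heat shock response regulator (chr1:156943497-156946766, minus strand), held 96 sites. NELF libraries had 33.2, 25.8, 12.1 and 5.33 per 100000 in NELFA, NELFB, NELFCD and NELFE, a mean of 19.1 ± 12.7. Integrator libraries ran from 0 in INIP to 11.3 in NABP2, a mean of 5.82 ± 3.87, and SPT5 had 36.6. NELF sites lay mostly at the start, with 15 of 24 in the first 600 bases, the outermost at 106 and 562. The Integrator sites did not: 6 of 42 were in the promoter zone and 19 past the end. In SPT5, 14 of 30 were in the body, the largest body count of a member in that library.

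Among the feedback regulators, Zfp36 was the only member, over its whole window, with each NELF library above each Integrator library. Zfp36 encodes tristetraprolin, which destroys mRNAs of inflammatory and early genes (chr7:29161803-29164274, minus strand), and it held 154 sites. NELF libraries had 29.9, 29.1, 24.2 and 21.3 per 100000 in NELFA, NELFB, NELFCD and NELFE, a mean of 26.1 ± 4.06. Integrator libraries had 19.7 in INTS3, 5.58 in INTS9, 2.95 in INTS11, 15.9 in NABP1, 19.3 in NABP2 and 4.01 in INIP, a mean of 11.2 ± 7.89. The gap is narrow, 21.3 in NELFE against 19.7 in INTS3, and NELFE is a small library in which 3 sites stand for 16.0. Such a separation was seen in 2.65% of the 16015 windows that average 1 or more sites per library. In promoter zones with that mean it was seen in 11.8% of 2808, and there Egr1, Zfp36 and Atf3 had it.

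SPT5 had 52.4 sites per 100000 at Zfp36 (exact Poisson 95% interval 37.9 to 70.6), above each of the other 10 libraries. In density per base this was rank 7 of 22350 protein-coding genes for SPT5, against 106 for NELF and 93 for Integrator. The SPT5 sites were spread out, with 6 of 43 in the promoter zone, 12 in the body and 17 past the end. The NELF sites of Zfp36 were spread out too, with 8 of 32 in the promoter zone, 12 past the end and 9 upstream. The gene Plekhg2 starts 4122 bases past the end of Zfp36, and 17 of the 49 sites past the end lay within 1 kb of that start.

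Dusp1, a phosphatase that switches off MAP kinases (chr17:26642535-26645464, minus strand), held 106 sites. It was the member with the closest NELF and Integrator means: 10.7 ± 9.05 and 10.6 ± 5.12 per 100000. NELF libraries had 6.64, 19.4, 17.0 and 0 in NELFA, NELFB, NELFCD and NELFE, and Integrator libraries ran from 4.06 in INTS9 to 18.1 in NABP2. NELFB was above each Integrator library and NELFE below each, while NELFA and NELFCD lay within the Integrator range. SPT5 had 32.9 (21.7 to 47.9), above the other 10 libraries. The zones differed: NELF had 11 of 15 sites in the promoter zone and 0 past the end, Integrator had 13 of 64 in the promoter zone and 12 past the end, and SPT5 had 11 and 8 of 27.

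Btg2, an antiproliferative gene that promotes mRNA deadenylation (chr1:135971747-135975697, minus strand), held 73 sites. NELF libraries had 19.9, 19.4, 7.27 and 5.33 per 100000 in NELFA, NELFB, NELFCD and NELFE, a mean of 13.0 ± 7.75. Integrator libraries had 12.5 in INTS3, 3.04 in INTS9, 0 in INTS11, 6.37 in NABP1, 6.80 in NABP2 and 0 in INIP, a mean of 4.78 ± 4.78, and SPT5 had 25.6. NELFA and NELFB were above each Integrator library, and the other NELF libraries were not. Of the 16 NELF sites, 14 were in the promoter zone and 0 in the body, against 10 and 5 of 21 for SPT5.

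**Figure D4:**
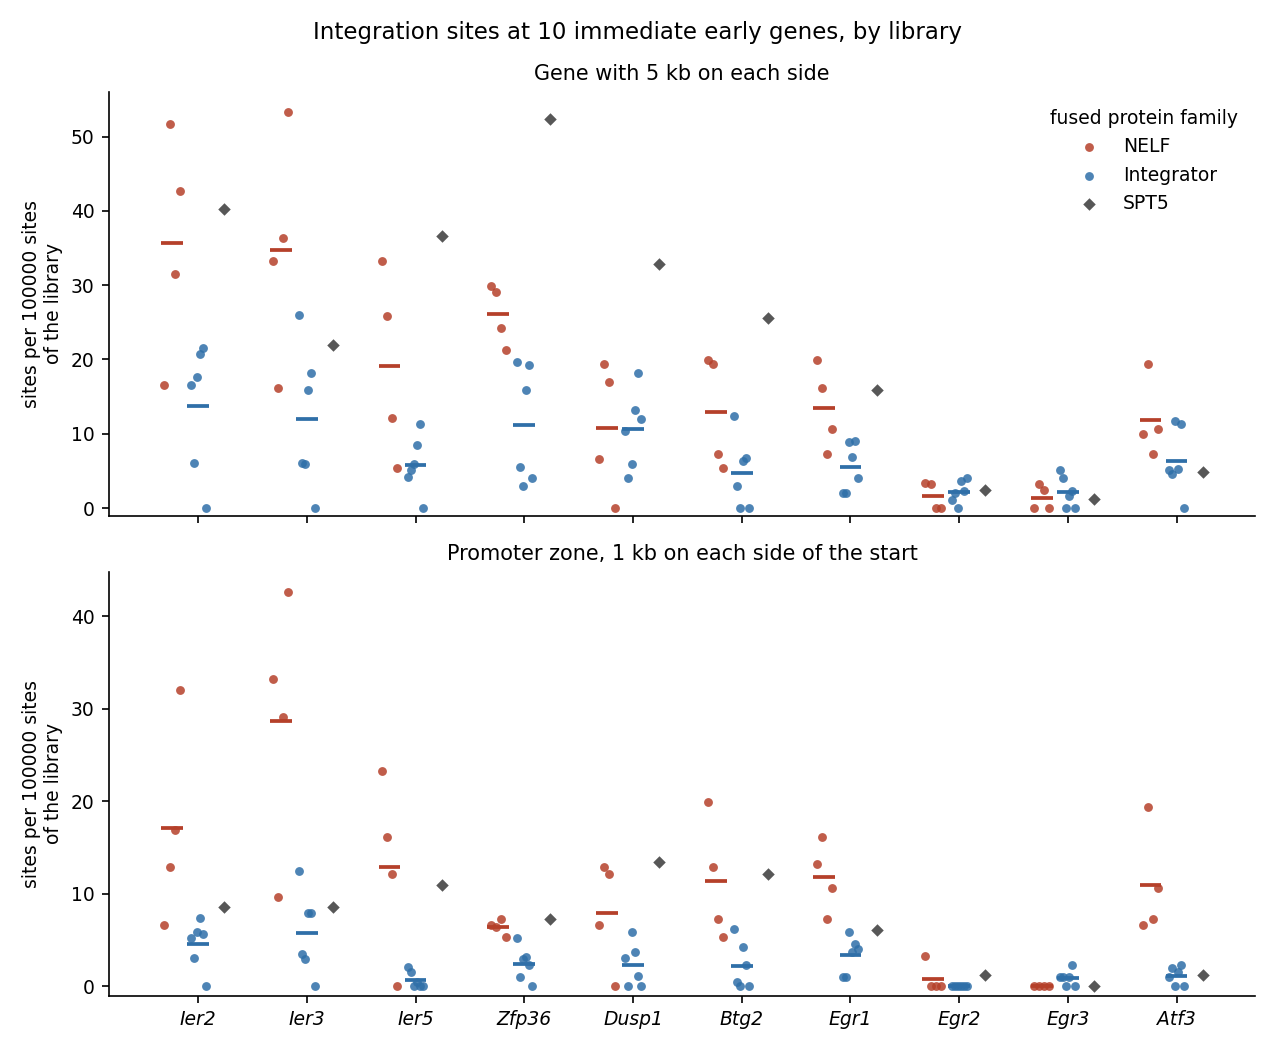
Sites per 100000 sites of the library (y axis) for each gene, over its whole window (top) and over the promoter zone (bottom). Circles are the 4 NELF and 6 Integrator libraries with a bar at their mean, and diamonds are the SPT5 library. In the top panel all NELF circles of Zfp36 (21.3 to 29.9) are above its Integrator circles, and the SPT5 diamonds of Zfp36, Ier5, Dusp1 and Btg2 are above every circle of those genes.

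By mean level over the whole window, the order in NELF was Ier2, Ier3, Zfp36, Ier5, Egr1, Btg2, Atf3, Dusp1, Egr2 and Egr3. Neighbours in this order differed by less than the larger of their SDs, except Dusp1 and Egr2, which differed by 9.11 beside an SD of 9.05. In Integrator libraries the order was Ier2, Ier3, Zfp36, Dusp1, Atf3, Ier5, Egr1, Btg2, Egr3 and Egr2, and each pair of neighbours differed by less than the larger SD. These are levels per gene window, and the windows ranged from 11240 to 23045 bases.

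NELF and Integrator were then compared gene by gene with limma, on log2 of sites per 100000 plus 1, over all genes that are not pseudogenes and average 10 or more sites per library. Of 1224 windows tested, 90 were higher in NELF (7.35%) and 5 lower (0.408%) at a Benjamini-Hochberg adjusted p under 0.05. Only Ier2, Ier3 and Zfp36 had enough sites to be tested, and 0 of the 3 passed. Ier3 differed by 1.93 (SE 0.71, adjusted p = 0.110), Ier2 by 1.73 (SE 0.71, adjusted p = 0.149) and Zfp36 by 1.45 (SE 0.51, adjusted p = 0.0858), each with the NELF mean above. Their unadjusted p-values in limma were 0.0152, 0.0269 and 0.0104, so all 3 were under 0.05 before adjustment, as were 17.0% of all windows in this direction. The median over all windows tested was 0.01.

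With a mean of at least 5 sites, 8 of the 10 members were tested among 4338 windows, of which 2.26% were higher and 0.3% lower in NELF. In limma 0 of the 8 passed, and 5 (Ier2, Ier3, Ier5, Zfp36 and Egr1) had an unadjusted p under 0.05, which 10.1% of these windows had in this direction. Dusp1 differed by -0.54 (SE 0.71, adjusted p = 0.720) on this log scale, on which its NELFE value of 0 weighs heavily. With a mean of at least 1 site, which tests 16015 windows, Ier3 (adjusted p = 0.00495) and Ier2 (adjusted p = 0.0141) were called higher in NELF by limma, as were 0.98% of these windows, while Zfp36 was not. Among the 1224 windows, Zfp36 was called without NABP2 (adjusted p = 0.0494), where 9.23% of windows were higher in NELF. It was also called with SPT5 counted as a NELF library (adjusted p = 0.0275), where 11.5% were. Ier2 and Ier3 were called in neither.

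In the promoter zone, most of the few genes with enough sites were higher in NELF. Of 33 protein-coding promoters with a mean of at least 5 sites, 26 (78.8%) were higher in NELF and 0 lower, and the median difference was 2.12 on the log2 scale. Ier3 was higher by 2.34 (SE 0.64, adjusted p = 0.00124 in limma) and Ier2 by 1.78 (SE 0.75, adjusted p = 0.0248). Against that median Ier3 was 0.22 higher and Ier2 0.34 lower (-0.34). With each library centred on its median promoter, Ier3 differed by 0.12 (adjusted p = 0.895) and Ier2 by -0.45 (adjusted p = 0.680), the opposite sign. The Ier2 call was lost without NELFCD (adjusted p = 0.0684) and without NELFE (adjusted p = 0.114).

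With a mean of at least 2 sites, 724 promoters were tested, 321 (44.3%) were higher in NELF and 0 lower, and the median difference was 1.50. Of the 10 members 8 were tested and 6 passed in limma. Egr2 and Egr3, with 2 and 7 promoter sites, had too few. The largest differences were those of Atf3 (2.52, SE 0.65, adjusted p = 0.00101) and Ier5 (2.51, SE 0.78, adjusted p = 0.00685). Ier3 (2.34), Btg2 (2.22), Ier2 (1.78) and Egr1 (1.66) followed, with adjusted p-values of 0.00379, 0.00406, 0.0277 and 0.0395. Zfp36 (1.32, adjusted p = 0.0816) and Dusp1 (1.25, adjusted p = 0.113) did not pass. At Atf3, 13 of the 24 promoter sites came from NELF libraries, and at Ier5 17 of 32, so both passed the count minimum mainly through the group in which they were high.

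**Figure D5:**
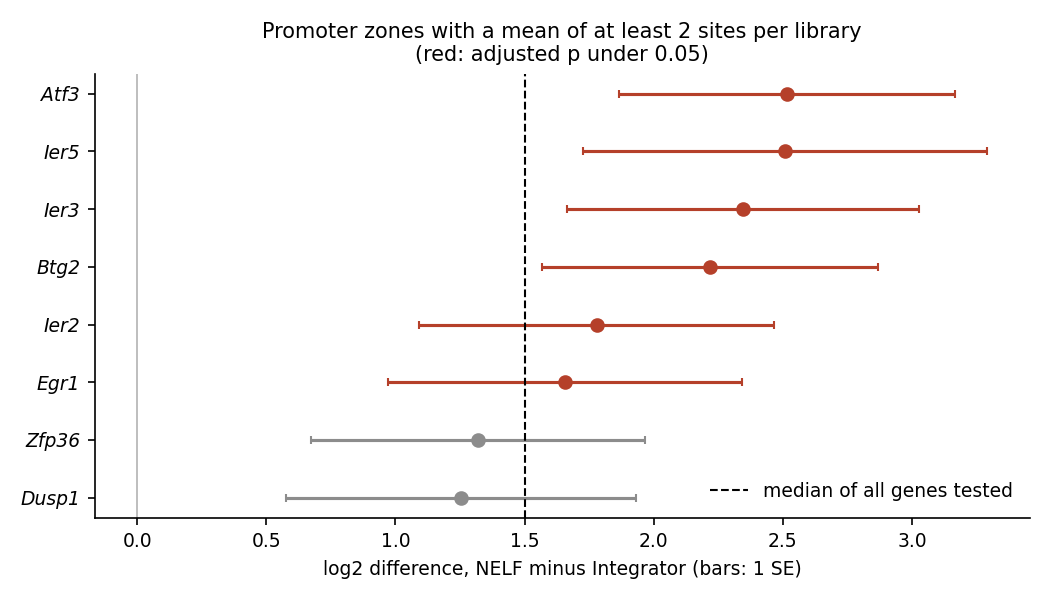
Log2 difference in promoter sites per 100000 (plus 1) between NELF and Integrator for the 8 members tested at a mean of at least 2 sites (x axis, bars 1 SE), with the 6 called in limma in red. The dashed line is the median of all 724 promoters, 1.50, and the bars of Ier2, Egr1, Zfp36 and Dusp1 cross it.

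Centring each library on its median promoter, an alternative added after the data were seen, left 0 of the 8 called (0.0% of the 724 promoters were then higher), with 4 members (Ier2, Egr1, Zfp36 and Dusp1) turned to a value below 0. With every library thinned to 18753 sites, 3 of the 8 were called (Atf3, Ier2 and Ier3), beside 27.3% of the 724 promoters.

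Past the end, 51 of 121 genes with a mean of at least 5 sites were higher in NELF (42.1%) and 1 was lower (0.826%), with a median of 1.22 on the log2 scale. The genes with the lowest p-values were mostly histone genes of the Hist1 group. The share and the median lean on these and are not a general background. Only Ier2 could be tested, and it differed by 0.48 (adjusted p = 0.657 in limma), 0.74 less than that median (-0.74). Its sign turned without NELFB (-0.054), without INIP (-0.022) and with each library centred on its median gene (-0.84). With a mean of at least 2 sites, 618 genes were tested past the end, of which 12.1% were higher and 0.971% lower in NELF. In limma 0 of the 4 members tested were called. The median difference was then 0.54, and Ier2 lay 0.06 below it (-0.06). Zfp36 differed by 1.77 (SE 0.73, adjusted p = 0.0826, unadjusted p = 0.0146), Ier3 by -0.66 (SE 0.81, adjusted p = 0.652) and Ier5 by -1.07 (SE 0.81, adjusted p = 0.428).

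Other genes of the same response were taken from fixed lists. Of the 7 AP-1 genes, 4 were tested in the window fit, 0 were called, and their median difference was 0.94. Fosl1, a Fos relative, held 237 sites and differed by 0.27 (SE 0.50). Junb differed by 1.04 (SE 0.45), and Jund (1.19) and Fosl2 (0.84) were of similar size. Summed over the AP-1 windows, sites were 29.1 ± 6.16-fold over uniform in NELF, 17.8 ± 9.11-fold in Integrator and 41.9-fold in SPT5, beside 30.3 ± 4.82, 13.4 ± 6.87 and 42.2 for the 10 genes described here.

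Of 13 paralogs of the members, 3 were tested and 0 called: Atf4, the integrated stress response factor, differed by 1.75, Ier5l by 1.58 and Jdp2, an AP-1 repressor, by -0.04. Of 39 other serum and growth factor response genes, 5 were tested and 1 was higher in NELF, with a list median of 0.44. It was Cyr61, a matricellular signalling gene, by 2.03 (SE 0.45, adjusted p = 0.00484 in limma). It had 57.5 ± 19.6 sites per 100000 in NELF, 15.2 ± 10.03 in Integrator and 52.4 in SPT5. Gadd45b, a stress sensor, differed by 0.61, Sgk1, a kinase, by 0.44, and Ccnl1, a cyclin linked to splicing, by -1.68 (SE 0.79, adjusted p = 0.203). For these lists the counts are read beside the 7.35% of all windows that were higher in NELF.

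Over the 11 libraries, the genes whose log2 values were most like the members' mean were Agxt2l2 (Pearson r = 0.974), Rassf1 (0.968), Son (0.966), D17H6S56E-5 (0.957) and Vars (0.956). The last of these overlaps the window of the one before it, so both share most of their sites. The median r over 1218 genes was 0.25. The points share library size and flow cell, so this only describes likeness in pattern over the libraries, not in level.

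The viral strand matched the strand of the gene in 439 of the 895 member sites, 49.1% (exact binomial 95% interval 45.7 to 52.4). Inside the gene models lay 410 sites, of which 136 were in coding exons, 157 in other exon sequence and 117 in introns. The 895 sites fell on 873 positions (base and strand), of which 852 were hit in 1 library and 21 in more than 1. The position hit in the most libraries, 3 (INTS3, INTS9 and NABP1), lay at position -597 from the start of Ier3. It is printed here as the clearest repeat in the 10 windows, with 20 bases on each side, from chr17:35958012-35958052 (mm9, in the direction of the gene, plus strand), and the capital marks the base that was hit.
Ier3: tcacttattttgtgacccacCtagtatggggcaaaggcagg

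Where a protein was read on more than 1 flow cell, the sum over the 10 genes was set side by side between runs. NABP1 had 104.9 and 92.9 sites per 100000, NABP2 124.8 and 97.8, and INTS9 43.0 and 39.2, with overlapping exact Poisson 95% intervals in each pair. The first value of each pair comes from the same flow cell. The second NABP2 value rests on 15 sites (54.8 to 161.4) and the second INTS9 value on 8 (16.9 to 77.2). With intervals this wide, overlap cannot show agreement. The promoter share of member sites was 34.2% and 35.1% in the NABP1 runs, 24.2% and 20% in the NABP2 runs, and 35.5% (27 of 76 sites) and 0% (0 of 8) in the INTS9 runs. Each NELF protein was read on 1 flow cell.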

How the data were processed

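The deposited files list, per the file headers, the 0-based genome position and strand of the first base beyond the viral LTR for each junction. These positions are neither counts nor signal, and mapping was to mm9 per the submitters' processing notes. No source used here names the aligner, the read filters or a minimum of reads. The 873534 entries gave 831994 distinct sites, each a chromosome, base and strand, with the runs of a protein joined into 1 library. Genes came from an annotation of mm9, and coordinates are 1-based.

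Values are sites per 100000 sites of the library, as mean ± SD over the proteins of a family. Fold over uniform divides by the share of the 2555806925 sequenced bases. NELF (4 libraries) and Integrator (6) were compared with limma 3.58.1 (R 4.3.3, trend and robust) on log2 of that value plus 1, two-sided, with Benjamini-Hochberg adjustment over all genes tested and a threshold of 0.05. Count minimums were a mean of 10 sites for windows and 5 for promoters and past ends. P-values measure the spread between the proteins of a family. The fits were tested on simulated counts.

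The members and gene lists were chosen with earlier results of these data known. Genes named are the 10 members, up to 4 genes of each list with the most sites, and the 5 most alike in pattern. Alternatives were pseudocount, count minimum, flank, what counts as a site, depth, scaling, limma settings, SPT5 grouped with NELF, and leaving out each library.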

Additional observations from a re-analysis of the deposited data

Results flagged for a closer look

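Among 44 groups of 4 or more libraries examined for a library far from the rest, 2 stood out. Chance alone marks about 1 group in 20 for continuous values, a rate that need not hold for groups with counts of 0 and 1. At the Egr2 promoter NELFA had 3.32 sites per 100000, from 1 site, and the other NELF libraries had 0. With all others at 0, that 1 site was enough for the flag. NELFB had the lowest promoter share of member sites among the NELF libraries, 52.4%, against 68.3 to 71.4% in the others. NELFB also had 22.2% of its member sites past the end, 7 of these 14 sites at Ier2. Without NELFB the NELF mean of the promoter share was 69.7%.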

How the results depend on the processing

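The number of windows that differed between NELF and Integrator was 95. It was 37 with 2 kb on each side, 200 with a mean of at least 1 site (157 higher and 43 lower) and 148 with SPT5 counted with NELF. With each library centred on its median gene, 97 were higher and 24 lower, against 90 and 5. For promoters the number was 26, and it was 321 with a mean of at least 2 sites, 335 with a mean of at least 1, 5 with only sites whose first number after the read name was at least 5, and 1 after centring. Past the end it was 52, and it was 20 with 2 kb, 81 with a mean of at least 2 sites and 33 after centring (27 higher and 6 lower). The cause of these shifts was not tested, beyond the fewer or more genes each count minimum tests. After centring, the Ier2 difference turned to -0.45 in the promoter and -0.84 past the end. Leaving out each library in turn moved the Ier2 difference past the end from -0.054 to 0.76. The Ier2 promoter call was also lost with a pseudocount of 0.5 (adjusted p = 0.0501 in limma) and with a mean of at least 1 site (0.0519), and the Ier3 promoter call with the first number at least 5 (0.0506). Of the 8 members tested among promoters with a mean of at least 2 sites, the number called was 0 after centring, 3 after thinning and 4 to 6 with each library left out in turn. A promoter zone of 500 bases on each side left no gene above the count minimum and could not be fitted. No paired analysis was possible because the labels give no replicate numbers that the families share. Depth limits the members most in NELFE and INIP, where 3 sites stand for 16.0 and 12.04 per 100000.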
